A study of Mus musculus with 9 samples.

Results

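The levels of 10 transcription factors that set B-cell identity and the germinal center program, Bcl6, Pax5, Bach2, Mef2b, Ebf1, Pou2af1, Spib, Foxo1, Irf8 and Id3, were examined in 9 mouse lymphomas. These members were taken by gene symbol, and each matched 1 of the 41128 gene rows of the deposited count table. All 10 were among the 14057 genes that passed the filter on low counts. The 3 Bcl6 tumors came from Smc3 wt/wt;Cγ1 wt/cre;IµBcl6 mice and the 6 Smc3/Bcl6 tumors from Smc3 wt/–;Cγ1 wt/cre;IµBcl6 mice, with 1 RNA-seq library per tumor, so both genotypes carried the Cre allele and the transgene. IµBcl6 places a Bcl6 cassette in the immunoglobulin heavy chain locus, so that B cells keep expressing Bcl6, and counts on Bcl6 do not separate the endogenous gene from the transgene. Cγ1-Cre is driven from the Ighg1 locus and removes 1 allele of Smc3, a cohesin core subunit, once B cells enter the germinal center. The labels give no ages. Replicate 1 of either genotype is labelled as a mesenteric lymph node, and the remaining tumors as a lymph node with no site given. Levels are given as CPM, the count on a gene scaled to a common library size with TMM factors.

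Germinal center B cells are activated B cells that divide rapidly and mutate their antibody genes in lymphoid follicles. Pax5 and Ebf1 establish and hold B-cell identity, Bcl6 is the repressor that germinal center B cells and many lymphomas depend on, and Bach2 and Mef2b act beside Bcl6 to sustain that state and to delay plasma cell differentiation. Pou2af1 (OCA-B) is a coactivator of octamer-binding factors, Spib and Irf8 bind composite elements at B-cell genes, Foxo1 supports the dark zone of the germinal center, and Id3 restrains E proteins by binding them.

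The total count per tumor ranged from 10156728 to 17774577, and p-values measure the spread between tumors. Smc3, the targeted gene, was at 88.1 to 126 CPM in the Bcl6 tumors and at 27.9 CPM (tumor 2) to 111 CPM in the Smc3/Bcl6 tumors, with a log2 fold change of -0.19 (SE 0.38). Without tumor 2 the Smc3/Bcl6 tumors were at 89.7 to 111 CPM and the log2 fold change was 0.0134 (SE 0.14). The gene-level count of Smc3, which takes in all its exons, thus did not separate the genotypes. By RT-qPCR, the paper reports reduced Smc3 expression in Smc3/Bcl6 tumors, and the deletion targets an exon of the gene. Smc3/Bcl6 tumor 2 stood apart from the others, with a TMM factor of 0.693 against 0.964 to 1.10 in the other 8. All 11 B-cell surface and receptor genes of a marker list (Cd79a, Cd79b, Ms4a1 and others) were detected in every tumor, and their summed level ran from 3833 to 10126 CPM in the Bcl6 tumors and from 5992 to 12827 CPM in the Smc3/Bcl6 tumors. All 12 T-cell genes were also above 0 in every tumor, from 450.3 to 3242 and from 141 to 3224 CPM. In such bulk samples, fewer cells of a type and less RNA per cell cannot be told apart.

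The genome stretches at which transcription of these factors starts give context for the levels that follow. A promoter window here is the 250 bases before to 50 bases after a RefSeq start site (GRCm38.p6), and all 10 factors had at least 1 of them, 13 in all. Windows are shown for Ebf1 and Pax5, whose levels varied most alongside each other, for Id3, which moved with them, and for Mef2b and Irf8, which had a high r with each other. Each runs 5′ to 3′ on the strand of its gene, and capitals mark matches on either strand to 1 of 8 short motifs: the octamer ATGCAAAT, the EBF site CCCNNGGG, the PU.1 and Spi-B core GAGGAA, the E-boxes CAGCTG and CAGGTG, the BCL6 site TTCCTAGAA, the FOXO site GTAAACA and the AP-1 and Bach site TGAGTCA.
Ebf1 (second RefSeq start, chr11:44619978-44620277, plus strand): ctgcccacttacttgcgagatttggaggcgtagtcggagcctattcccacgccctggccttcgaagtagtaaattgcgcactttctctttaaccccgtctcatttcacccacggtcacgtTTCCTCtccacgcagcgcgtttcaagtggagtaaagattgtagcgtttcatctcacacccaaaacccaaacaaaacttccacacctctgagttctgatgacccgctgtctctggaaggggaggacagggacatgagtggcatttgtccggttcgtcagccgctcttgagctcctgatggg
Pax5 (chr4:44710645-44710944, minus strand): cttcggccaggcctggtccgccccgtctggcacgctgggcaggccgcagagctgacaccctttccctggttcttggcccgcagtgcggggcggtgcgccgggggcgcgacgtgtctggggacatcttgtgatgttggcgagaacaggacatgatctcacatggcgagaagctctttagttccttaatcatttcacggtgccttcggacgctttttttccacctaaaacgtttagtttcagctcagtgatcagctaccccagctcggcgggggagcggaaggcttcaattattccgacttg
Id3 (chr4:136143572-136143871, plus strand): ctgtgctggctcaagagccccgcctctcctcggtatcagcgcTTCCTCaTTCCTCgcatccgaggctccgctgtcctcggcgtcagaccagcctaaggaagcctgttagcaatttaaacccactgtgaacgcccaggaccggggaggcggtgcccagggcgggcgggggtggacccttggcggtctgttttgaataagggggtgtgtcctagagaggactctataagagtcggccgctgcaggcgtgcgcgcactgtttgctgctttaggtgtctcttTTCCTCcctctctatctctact
Mef2b (chr8:70152511-70152810, plus strand): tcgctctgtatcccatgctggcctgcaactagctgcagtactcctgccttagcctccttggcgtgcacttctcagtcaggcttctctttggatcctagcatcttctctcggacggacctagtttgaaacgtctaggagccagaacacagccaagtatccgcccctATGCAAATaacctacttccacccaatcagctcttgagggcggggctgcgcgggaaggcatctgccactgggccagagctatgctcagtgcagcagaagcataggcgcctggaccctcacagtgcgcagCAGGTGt
Irf8 (first RefSeq start, chr8:120736108-120736407, plus strand): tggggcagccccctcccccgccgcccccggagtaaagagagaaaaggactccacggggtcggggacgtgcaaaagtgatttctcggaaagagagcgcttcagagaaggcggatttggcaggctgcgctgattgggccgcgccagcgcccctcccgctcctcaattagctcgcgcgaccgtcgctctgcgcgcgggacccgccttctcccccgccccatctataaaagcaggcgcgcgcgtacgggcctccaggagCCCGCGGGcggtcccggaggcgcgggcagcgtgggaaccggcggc
The Pax5 window held 0 matches. The second Ebf1 window, shown here, held 1 PU.1 and Spi-B core, and the Id3 window held 3. The first Ebf1 window, not shown, held 0 matches. The octamer in the Mef2b window was its only occurrence in the 13 windows, and 1.74% of the 32851 promoters of the table hold it. The Mef2b window also held CAGGTG at its 3′ end (20.2% of all promoters), and the first Irf8 window held an EBF site (13.7%).

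Across the other windows, the EBF site also occurred at Foxo1 and Spib, and the PU.1 and Spi-B core, present in 28.3% of all promoters, occurred at Bcl6 and Pou2af1 as well as Ebf1 and Id3. The second Irf8 window held the E-box CAGGTG. The E-box CAGCTG, the BCL6 site, the FOXO site and the AP-1 and Bach site occurred in 0 of the 13 windows, against 16.3%, 0.411%, 3.65% and 5.20% of all promoters. The 2 PU.1 and Spi-B cores nearest the 5′ end of the Id3 window lie next to each other, and overlapping matches were merged in the capitals, as in the Spib window where 2 EBF matches overlap. A match describes these letters and not binding.

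Comparing the genotypes asks whether loss of 1 Smc3 allele went with other levels of these factors. No factor passed the test between Smc3/Bcl6 and Bcl6 tumors, and the levels of the 9 tumors spread far more than the genotype means differed. Over all genes, 0% (0 of 14057) passed the quasi-likelihood test of edgeR at an adjusted p under 0.05 (Benjamini-Hochberg), and 79 had an unadjusted p below 0.05 (209 by DESeq2, which also gave 0 at an adjusted p below 0.05). Of the 10 factors, 0 passed either limit with either tool. The thresholds of the study, an unadjusted p below 0.1 with an absolute log2 fold change above 0.56, were passed by 1.28% of the genes with higher and 0.868% with lower levels in Smc3/Bcl6 tumors, and by 0 of the 10 factors. With library size alone in place of TMM, which moved the median log2 fold change of all genes by -0.10, the 180 higher and 122 lower genes became 108 and 175, and still 0 factors passed. In a fit that paired tumors by number (1 to 3 of either genotype), 45 genes were higher and 254 lower, against 168 and 88 in the same 6 tumors without the pairing, and again 0 factors passed. The genotypes did not overlap for 0.484% of genes and overlapped for each factor. The smallest unadjusted p of a factor was 0.459 (Id3), the adjusted p was 1 for each, the median absolute log2 fold change was 0.13 for the factors and 0.24 for all genes, and 7 factors had a positive and 3 a negative value (57.4% of all genes were positive). The tally of positive values was 6 with library size alone, 8 with the size factors of DESeq2, 2 without Bcl6 tumor 3, 4 without Smc3/Bcl6 tumor 4 and 10 without Bcl6 tumor 1 or without Smc3/Bcl6 tumor 5. Relative to the mean log2 CPM of Cd79a, Cd79b and Ms4a1, which was itself 0.51 higher in the Smc3/Bcl6 tumors, the difference of genotype means was below 0 for all 10 factors, from -0.21 (Pou2af1) to -0.79 (Ebf1), as it was for 93.2% of all genes.

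**Figure D1:**
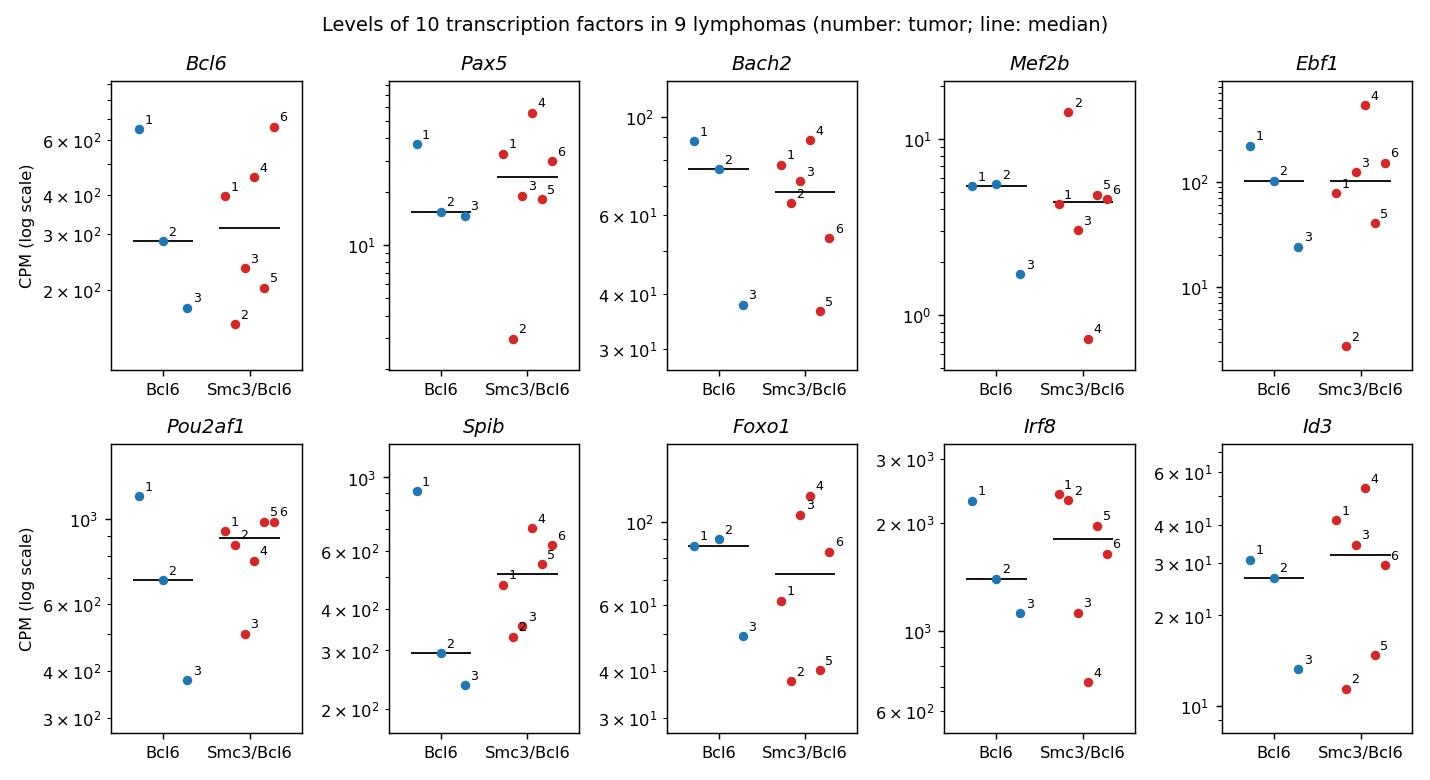
Level of each factor in CPM on a log axis (each panel with its own range), with Bcl6 tumors in blue, Smc3/Bcl6 tumors in red, the tumor number beside each point and the median as a line. The genotypes overlap in every panel, and Ebf1 spans the widest range, from 2.75 CPM in Smc3/Bcl6 tumor 2 to 533 CPM in Smc3/Bcl6 tumor 4.

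Bcl6 (ENSMUSG00000022508.5, chromosome 16, 23965052 to 23988852, GRCm38, minus strand) encodes the repressor that the transgene also supplies. Its level was 647, 286 and 175 CPM in the Bcl6 tumors (numbers 1 to 3), and across the Smc3/Bcl6 tumors the lowest, median and highest levels were 155, 315 and 659 CPM. Tumors of both genotypes therefore lay at the high end (Bcl6 tumor 1, Smc3/Bcl6 tumor 6) and at the low end (Bcl6 tumor 3, Smc3/Bcl6 tumor 2). Bcl6 tumors averaged 369 ± 247 CPM (SD, n = 3) against 350.4 ± 191 CPM (SD, n = 6), with a log2 fold change of -0.08 with a standard error (SE) of 0.53. By leaving out 1 tumor this moved from -0.42 (without Bcl6 tumor 3) to 0.55 (without Bcl6 tumor 1).

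Pax5 (ENSMUSG00000014030.10, chromosome 4, 44524757 to 44710487, minus strand), the factor that commits cells to the B lineage, was at 37.0, 15.4 and 14.6 CPM in the Bcl6 tumors. In the Smc3/Bcl6 tumors its lowest, median and highest levels were 2.96, 24.3 and 56.0 CPM. Smc3/Bcl6 tumor 2 alone was below every Bcl6 tumor, with 28 counts on the gene, and Smc3/Bcl6 tumor 4 was highest. Its log2 fold change was 0.24 (SE 0.69), and 0.50 without Smc3/Bcl6 tumor 2. An antisense transcript of the table, Gm12462, shares 1.41% of the exon bases of Pax5, and the strand setting of the counting is not stated.

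Ebf1 (ENSMUSG00000057098.9, chromosome 11, 44617317 to 45008091, plus strand), the factor that opens chromatin at early B-cell genes and acts with Pax5, varied the most of the 10. Its levels were 220.2, 102 and 24.2 CPM in Bcl6 tumors 1 to 3, and 2.75, 100.5 and 533 CPM were the lowest, median and highest in the Smc3/Bcl6 tumors. The highest tumor (Smc3/Bcl6 tumor 4, 8010 counts) had 194 times the level of the lowest (Smc3/Bcl6 tumor 2, 26 counts), and 22.0 times the next lowest, Bcl6 tumor 3. The SD of log2 CPM over 9 tumors was 2.17, larger than that of 97.4% of the genes tested. The mean was 115 ± 98.7 CPM (SD, n = 3) and 155 ± 193 CPM (SD, n = 6), and the log2 fold change was 0.42 with an SE of 1.16. It was -0.49 without Smc3/Bcl6 tumor 4, -0.06 without Bcl6 tumor 3, 0.72 without Smc3/Bcl6 tumor 2 and 1.25 without Bcl6 tumor 1. Its sign thus changed on leaving out Smc3/Bcl6 tumor 4 or Bcl6 tumor 3.

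Id3 (ENSMUSG00000007872.3, chromosome 4, 136143497 to 136145755, plus strand) encodes the inhibitor of E proteins. It had 30.7, 26.7 and 13.2 CPM in the Bcl6 tumors, and the Smc3/Bcl6 tumors ran from 11.4 CPM (tumor 2) through a median of 31.8 to 53.0 CPM (tumor 4). Low tumors occurred in both genotypes, and the 3 highest levels were those of Smc3/Bcl6 tumors 4, 1 and 3. For Id3 the log2 fold change was 0.39 (SE 0.50), and it stayed between 0.10 and 0.58 with each tumor left out.

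Foxo1 (ENSMUSG00000044167.5, chromosome 3, 52268336 to 52353221, plus strand), a forkhead factor that phosphoinositide 3-kinase signaling keeps out of the nucleus, was at 86.2, 89.6 and 49.4 CPM in the Bcl6 tumors. In the Smc3/Bcl6 tumors it ranged from 37.6 CPM (tumor 2) to 117 CPM (tumor 4), with a median of 72.3 CPM. Its log2 fold change of -0.02 (SE 0.41) was the nearest to 0 of the 10. The antisense transcript Gm20402 covers 7.78% of its exon bases.

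Bach2 (ENSMUSG00000040270.11, chromosome 4, 32238804 to 32586108, plus strand), a repressor of the plasma cell program, had the narrowest range. It was at 88.2, 76.1 and 37.8 CPM in the Bcl6 tumors, and at 36.6, 67.8 and 88.5 CPM as the lowest, median and highest of the Smc3/Bcl6 tumors. The highest level was 2.42 times the lowest, and the low tumors were Bcl6 tumor 3 and Smc3/Bcl6 tumor 5. A log2 fold change of -0.05 (SE 0.34) was fitted for Bach2. The antisense transcript Bach2os covers 5.40% of its exon bases.

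Mef2b (ENSMUSG00000079033.4, chromosome 8, 70139711 to 70167488, plus strand), a MADS-box factor that activates Bcl6 in germinal center B cells, was the sparsest, with 573 counts in all 9 tumors together and 11 to 133 per tumor. Its levels were 5.38, 5.51 and 1.70 CPM in the Bcl6 tumors, and 0.732, 4.38 and 14.1 CPM were the lowest, median and highest of the Smc3/Bcl6 tumors. Smc3/Bcl6 tumor 2, the lowest for Pax5 and Ebf1, was the highest for Mef2b, and Smc3/Bcl6 tumor 4, the highest for both, was the lowest. For Mef2b the log2 fold change was 0.31 (SE 0.77), and -0.25 without Smc3/Bcl6 tumor 2. Mef2b shares 4.42% of its exon bases with Borcs8 on the same strand, so part of its count is uncertain.

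Irf8 (ENSMUSG00000041515.4, chromosome 8, 120736358 to 120756694, plus strand), an interferon regulatory factor of B cells that dendritic cells and macrophages also use, had the highest CPM of the 10. It was at 2299.8, 1397 and 1120.1 CPM in the Bcl6 tumors, and ranged from 719 CPM (tumor 4) through a median of 1798 to 2398 CPM (tumor 1) in the Smc3/Bcl6 tumors. The order of tumors was unlike that of Ebf1, since Smc3/Bcl6 tumor 4 was lowest and Smc3/Bcl6 tumor 2, at 2309.7 CPM, was the second highest. Irf8 had a log2 fold change of 0.07 (SE 0.43).

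Pou2af1 (ENSMUSG00000032053.7, chromosome 9, 51213708 to 51240080, plus strand), the octamer coactivator, was at 1147, 691 and 377 CPM in the Bcl6 tumors. In the Smc3/Bcl6 tumors the lowest, median and highest were 501, 893 and 985 CPM. Tumor 3 was lowest in each genotype, and the log2 fold change was 0.18 (SE 0.37).

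Spib (ENSMUSG00000008193.8, chromosome 7, 44525993 to 44532071, minus strand), an Ets factor close to PU.1, was at 909, 295 and 235 CPM in the Bcl6 tumors and at 330.2, 510.3 and 701 CPM (lowest, median, highest) in the Smc3/Bcl6 tumors. Bcl6 tumor 1 was above every other tumor, whereas the other two Bcl6 tumors were below all 6 Smc3/Bcl6 tumors. Between genotypes Spib had a log2 fold change of 0.08 (SE 0.45). Spib was the 1 factor that passed the thresholds of the study under an alternative: without Bcl6 tumor 1 it was 0.87, and with limma and a quality weight per tumor, it was 0.72. The weights ran from 0.125 (Smc3/Bcl6 tumor 2) to 3.30 (Bcl6 tumor 2).

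**Figure D2:**
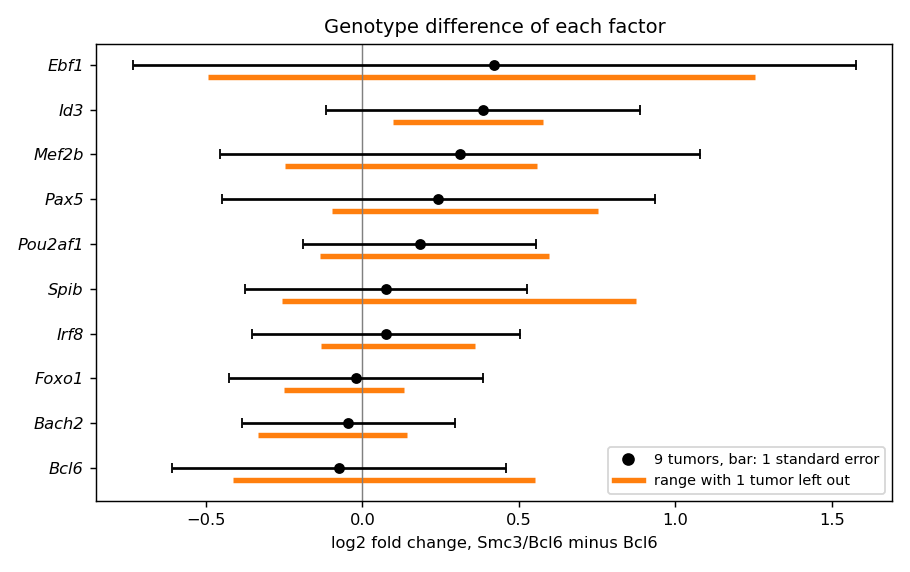
Log2 fold change of each factor (Smc3/Bcl6 minus Bcl6, black points) with 1 SE from edgeR's quasi-likelihood fit over 9 tumors, and the range of the same value with 1 tumor left out (orange). Every SE bar crosses 0 and the orange range crosses 0 for each factor except Id3, which runs from 0.10 to 0.58.

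Per kilobase of exon, the median levels formed 3 tiers. Pou2af1 (336 CPM per kilobase), Irf8 (232) and Spib (165) were highest, Bcl6 (42.6) stood alone, and Id3 (16.4), Ebf1 (10.5), Foxo1 (9.59), Bach2 (7.21), Mef2b (3.23) and Pax5 (2.14) followed. Spib was above Bcl6 and Bcl6 above Id3 in 9 of 9 tumors. The neighbors Id3 and Ebf1 (Id3 higher in 7 of 9), Ebf1 and Foxo1 (6 of 9), Foxo1 and Bach2 (7 of 9) and Mef2b and Pax5 (4 of 9) did not keep 1 order, and the median log2 difference of each of these pairs was smaller than its SD over the tumors, as was that of Pou2af1 and Irf8, of Irf8 and Spib, and of Bach2 and Mef2b. These levels depend on the exon length of the annotation, in which all isoforms are merged.

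Single tumors were high or low for many of the factors. Smc3/Bcl6 tumor 4 was the highest for 5 of the 10 (Pax5, Bach2, Ebf1, Foxo1 and Id3) and the lowest for Mef2b and Irf8. Bcl6 tumor 1 was among the 2 highest for 6 factors, and Bcl6 tumor 3 was among the 2 lowest for 9. Smc3/Bcl6 tumor 2 was the lowest for 5 (Bcl6, Pax5, Ebf1, Foxo1 and Id3). In that tumor, Ebf1 lay 5.21 below the mean log2 CPM of the other 8 and Pax5 lay 3.02 below, whereas Mef2b lay 2.08 above. After a correction for exon length and GC content, the differences of Ebf1 and Pax5 from the other tumors were -4.07 and -2.17 and that of Mef2b was 1.26, whereas that of Foxo1 went from -0.99 to -0.05 and that of Bcl6 from -1.14 to -0.58. For other factors it grew, from 0.02 to 1.13 (Bach2), from -1.27 to -2.25 (Id3), from -0.52 to -1.005 (Spib) and from 0.65 to 1.25 (Irf8). That of Pou2af1 changed sign, from 0.18 to -0.34. In this tumor the correction raised every factor with at least 6700 exon bases (Bcl6, Pax5, Bach2, Ebf1, Foxo1 and Irf8). It lowered every factor with at most 2868 (Mef2b, Pou2af1, Spib and Id3). Part of the levels in this library thus went with exon length and GC content. Whether the same holds for its low Smc3 level was not tested.

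Co-variation was examined across the 9 tumors for all 45 pairs of factors, as Pearson's r and Spearman's rho of log2 CPM with exact two-sided permutation p-values. The tumors share no library, but each point carries the depth, the cell makeup and the base composition of its own. Of the 45 pairs, 32 had a positive and 13 a negative r, with a median of 0.432. Over all pairs of the 14057 genes the median was -0.005, and the 5th to 95th percentiles ran from -0.773 to 0.796, so single values of r of this size are common among genes in these tumors. With Benjamini-Hochberg adjustment over the 45 pairs, 9 had an adjusted p below 0.05 by r, all positive (15 had an unadjusted p below 0.05), and 0 by rho, for which 13 had an unadjusted p below 0.05 and the smallest adjusted p by exact permutation was 0.0547.

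Ebf1, Pax5, Id3 and Foxo1 made up most of these pairs. Ebf1 and Pax5, which act together at B-cell genes, had the highest r of the 45, 0.939 (exact permutation p = 0.000728, adjusted p = 0.0109; rho 0.867, exact p = 0.00451), and it was 0.665 without the 2 tumors farthest from the median of Pax5 and 0.912 after the length and GC correction (adjusted exact p = 0.0116). Ebf1 and Foxo1 had an r of 0.874 (exact permutation p = 0.00035, adjusted p = 0.0109; rho 0.850, exact p = 0.00607) and 0.835 without the 2 farthest tumors, but this call was lost after the length and GC correction (r 0.589, adjusted exact p = 0.247). Ebf1 and Id3 had an r of 0.870 (exact permutation p = 0.000697, adjusted p = 0.0109; rho 0.783, exact p = 0.0172) and 0.787 without the 2 farthest, and 0.940 after the correction (adjusted exact p = 0.0114). In each of these pairs Smc3/Bcl6 tumor 4 was the highest and Smc3/Bcl6 tumor 2 the lowest of the 9 for both genes. Foxo1 with Id3 (r 0.861) and Pax5 with Id3 (r 0.814) also passed, with adjusted exact permutation p-values of 0.0331 and 0.0227, whereas Pax5 with Foxo1 (r 0.687) had an adjusted exact p of 0.10. After the correction the r of Foxo1 with Id3 was 0.501 (adjusted exact p = 0.334), a lost call, and that of Pax5 with Id3 was 0.917 (adjusted exact p = 0.0114). The 95th percentile of r with all tested genes was 0.731 for Id3, 0.752 for Foxo1, 0.8706 for Ebf1 and higher still for Pax5. Before the correction, Pax5 with Id3 lay below that of Pax5, and Ebf1 with Id3 (0.8700) below that of Ebf1. Both lay above that of Id3. The other pairs of these genes that passed lay above the percentiles of both genes.

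For Bcl6 itself, 2 of its 9 pairs passed, those with Pax5 and Ebf1. Its r with Pax5 was 0.777 (exact permutation p = 0.00514, adjusted p = 0.0331; rho 0.833, exact p = 0.00827) and 0.847 without the 2 tumors farthest from its median. With Ebf1 it was 0.774 (exact permutation p = 0.00757, adjusted p = 0.0426; rho 0.867, exact p = 0.00451) and 0.839 without those tumors. Over 9 tumors, both r values lay above the 95th percentile of r with all tested genes for Bcl6 (0.693). They lay below that for Pax5 or Ebf1. Neither call held after the length and GC correction (r 0.682 and 0.684, adjusted exact p = 0.160 for both), and that of Bcl6 with Ebf1 was also lost with genotype means removed (adjusted exact p = 0.0667). Bcl6 with Spib had a larger r, 0.796, but missed the threshold (exact permutation p = 0.0140, adjusted p = 0.0631; rho 0.750, exact p = 0.0255), with 0.646 without the 2 farthest. The r of Bcl6 was 0.734 with Id3, 0.649 with Foxo1, 0.566 with Pou2af1 and 0.517 with Bach2, and the adjusted exact p-values of these 4 pairs ran from 0.105 to 0.282. With Irf8 it was 0.03 and with Mef2b -0.21 (adjusted exact p = 0.944 and 0.714).

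Mef2b and Irf8 passed by r, in an order of tumors unlike that of Ebf1. Their r was 0.846 (exact permutation p = 0.00252, adjusted p = 0.0227), with a rho of 0.650 (exact p = 0.0666) and an r of 0.671 without the 2 farthest tumors. Pou2af1 and Spib were the remaining pair that passed, with an r of 0.782 (exact permutation p = 0.00980, adjusted p = 0.0490; rho 0.750, exact p = 0.0255) and 0.696 without the 2 farthest. This call held after the length and GC correction (r 0.842, adjusted exact p = 0.0445). It was lost with genotype means removed (r 0.768, adjusted exact p = 0.203), and within the 6 Smc3/Bcl6 tumors the r was 0.470. The 3 lowest r values were those of Pax5 with Mef2b (-0.674), Mef2b with Ebf1 (-0.631) and Foxo1 with Irf8 (-0.565), none of which passed (adjusted exact p of 0.172, 0.183 and 0.233). Without the 2 farthest tumors the first 2 changed sign, to 0.474 and 0.640, and the last was -0.399. These 2 negative relations of the sparse gene Mef2b thus rested on those tumors, whereas its r with Bcl6 went from -0.21 to -0.547 without the tumors farthest from the median of Bcl6.

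**Figure D3:**
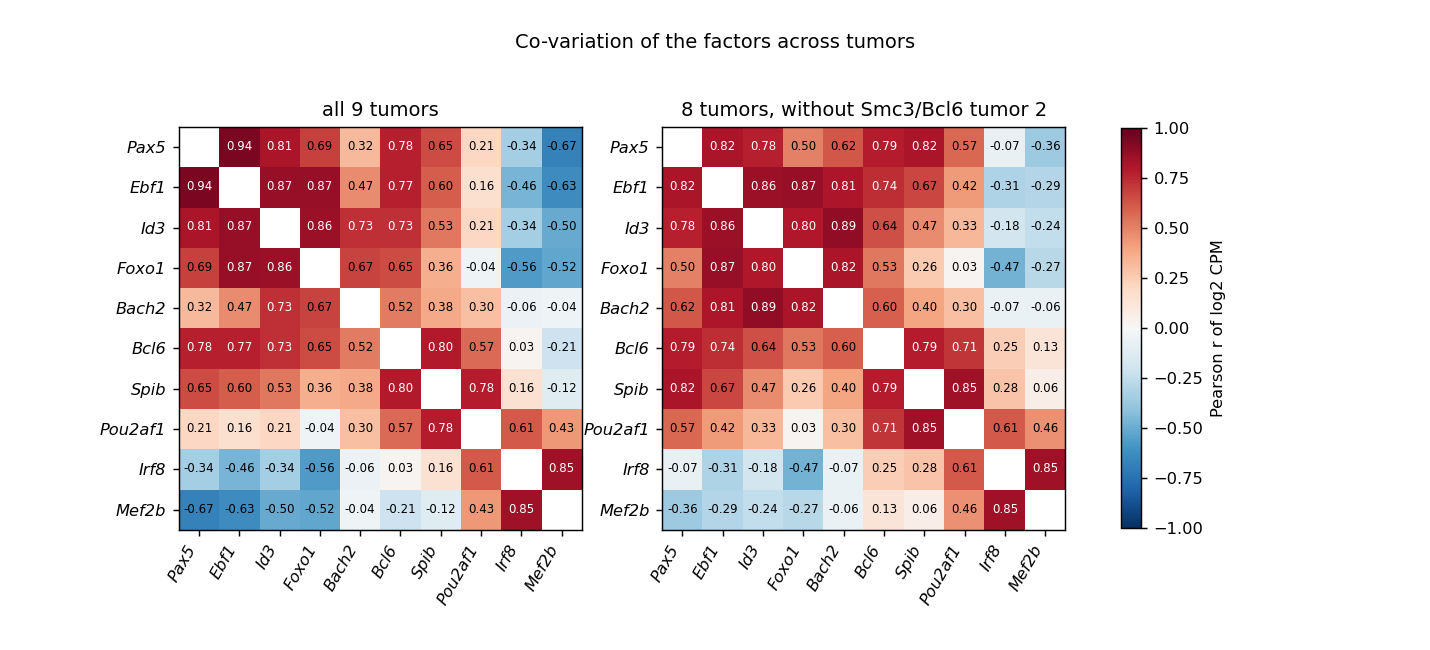
Pearson r of log2 CPM for every pair of factors, on the left over all 9 tumors and on the right over the 8 tumors without Smc3/Bcl6 tumor 2 (red positive, blue negative, the value printed in each cell). The block of Pax5, Ebf1, Id3 and Foxo1 is red on both sides, while the blue cells of Mef2b with Pax5 and Ebf1 go from -0.67 and -0.63 to -0.36 and -0.29.

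The calls depended on single tumors more than the values of r did. Without Smc3/Bcl6 tumor 2, and likewise without Smc3/Bcl6 tumor 4, 0 of the 45 pairs had an adjusted p below 0.05, and leaving out each of the others gave 4 to 9. The sign of all 9 pairs was kept in each of these settings. Without Smc3/Bcl6 tumor 2, the r of Ebf1 was 0.818 with Pax5, 0.868 with Foxo1 and 0.856 with Id3 (adjusted exact permutation p of 0.0836, 0.0714 and 0.0779). In the same 8 tumors, the r of Bach2 with Id3 went from 0.733 to 0.891 and that of Bach2 with Ebf1 from 0.470 to 0.806, whereas over all 9 tumors the length and GC correction brought them to -0.073 and -0.064. Within the 6 Smc3/Bcl6 tumors the r of Pax5 and Ebf1 was 0.961, but 0 pairs passed (smallest adjusted exact p = 0.0875), and 3 Bcl6 tumors are too few for an r. With genotype means removed, 8 pairs passed, of which 7 were among the 9. After the length and GC correction 6 passed, of which 5 were among the 9, with all 9 signs kept.

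**Figure D4:**
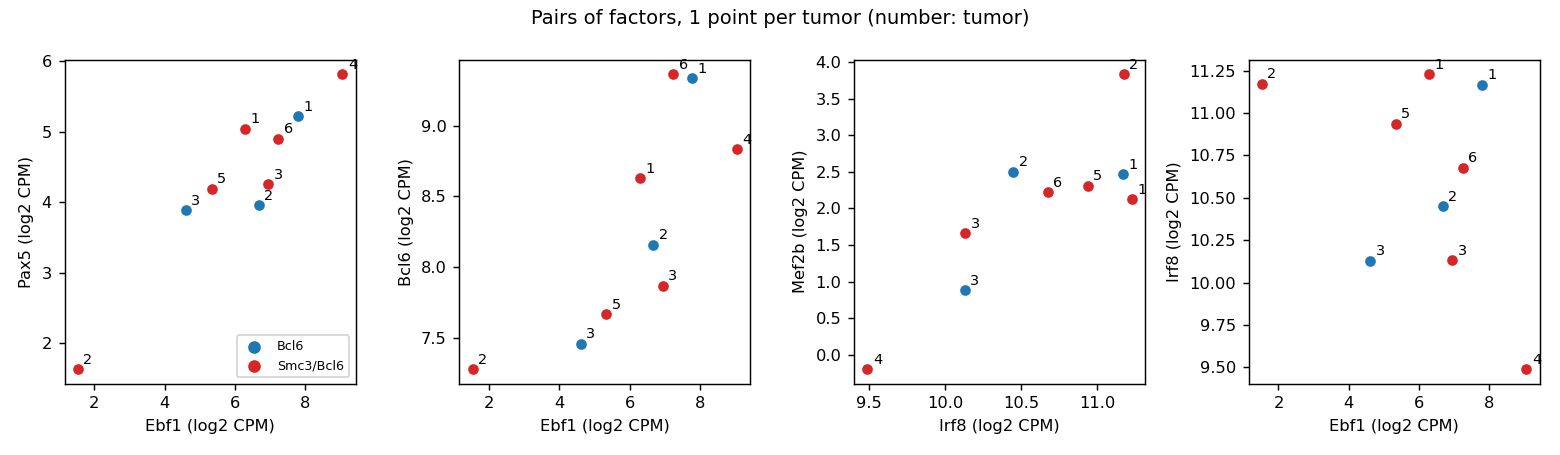
Log2 CPM of 4 pairs of factors, 1 point per tumor (Bcl6 tumors blue, Smc3/Bcl6 tumors red, tumor number beside the point). Ebf1 is plotted with Pax5 (r 0.939), with Bcl6 (r 0.774) and with Irf8 (r -0.461), and Irf8 with Mef2b (r 0.846), and Smc3/Bcl6 tumors 2 and 4 are the extremes of Ebf1.

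Of the 10 factors, Spib alone passed a test of its relation with the level of B-cell markers, and 0 passed with T-cell markers. The share of all genes that would pass the same tests was not determined. The relations of each factor with the mean log2 CPM of 3 B-cell genes (Cd79a, Cd79b and Ms4a1), of the T-cell genes, of 13 macrophage and dendritic genes and of 9 plasma cell genes gave 40 comparisons, chosen after the data had been seen. With the B-cell genes 9 of 10 factors had a positive r (median 0.632), against 52.9% of all genes tested, and Spib passed, with an r of 0.881 (exact permutation p = 0.00103, adjusted p = 0.0410), a rho of 0.950 (exact p = 0.000353, adjusted p = 0.0141) and an r of 0.942 without the 2 tumors farthest from its median. Pax5 had a rho of 0.850 (exact p = 0.00607, adjusted p = 0.0810) and an r of 0.571 (adjusted exact p = 0.365). Without Smc3/Bcl6 tumor 2 the r of Pax5 with the B-cell genes was 0.886, that of Ebf1 went from 0.609 to 0.867 and that of Spib was 0.888, with no test in these 8 tumors. With the T-cell genes 9 of 10 had a negative r (median -0.485), against 52.8% of all genes, and 0 passed. The largest of these was that of Bcl6, -0.762 (adjusted exact permutation p = 0.166; rho -0.617), and Irf8 had an r of -0.753 with the macrophage and dendritic genes (adjusted exact permutation p = 0.166; rho -0.850).

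The summed level of the 3 B-cell genes was 4677, 2496 and 1345 CPM in Bcl6 tumors 1 to 3, and in Smc3/Bcl6 tumors 1 to 6 it was 3679.8, 3454, 2558, 6179.96, 3198 and 3614 CPM. Bcl6 tumor 3, which was low for 9 of the factors, thus had the lowest and Smc3/Bcl6 tumor 4 the highest B-cell marker level. The 3 genes did not move alike in Smc3/Bcl6 tumor 2, where Cd79b was the highest of the 9 tumors (2303 CPM) and Ms4a1 next to the lowest (359 CPM). By mean log2 CPM, that tumor was next to the lowest for all 11 B-cell genes (7.58) but not for the 3 (9.76, with 8.62 in Bcl6 tumor 3). Levels relative to the 3 genes thus depend on which B-cell genes are taken. The T-cell genes summed to 450.3, 3242 and 2431 CPM and to 141, 3224, 2934, 391, 1234 and 297 CPM in the same order. Expressed relative to the 3 B-cell genes, the spread of Spib over the tumors went from an SD of 0.64 to 0.32 on the log2 scale and that of Ebf1 from 2.17 to 1.84, whereas that of Irf8 went from 0.60 to 0.89. On that relative scale 1 pair passed, Pou2af1 with Irf8 (r 0.940, against 0.610 before). Of the 9 pairs 0 passed, although all 9 kept their sign and Pax5 with Ebf1 had an r of 0.855. The same mean was subtracted from both genes of a pair, which puts a shared term into each r. Neither that pass nor the kept signs can therefore be read as support for a relation. The part of cell makeup in these relations was not tested.

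**Figure D5:**
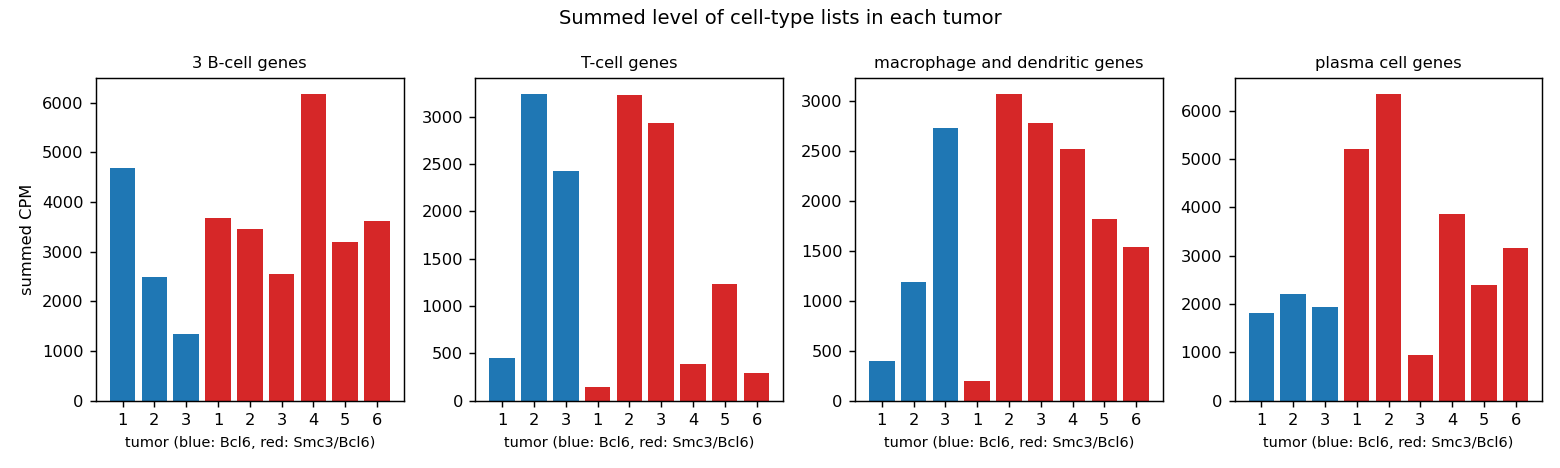
Summed CPM of the 3 B-cell genes, 12 T-cell genes, 13 macrophage and dendritic genes and 9 plasma cell genes in each tumor (bars start at 0, Bcl6 tumors blue, Smc3/Bcl6 tumors red). B-cell genes peak in Smc3/Bcl6 tumor 4 at 6179.96 CPM, and T-cell genes are highest in Bcl6 tumor 2 (3242 CPM) and Smc3/Bcl6 tumors 2 (3224) and 3 (2934).

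Lists of genes that work with these factors were read in the same fit, in which 1.28% of all genes passed the thresholds of the study with higher and 0.868% with lower levels. Of 14 other B-cell transcription factors (Ikzf1, Spi1, Tcf3 and others) 0 passed the thresholds of the study with higher and 1 with lower levels. That gene was Mybl1, a Myb factor of germinal center B cells, at 7.14, 4.05 and 2.84 CPM in the Bcl6 tumors and 1.15 to 5.20 CPM in the Smc3/Bcl6 tumors, with a log2 fold change of -1.003 (SE 0.54). Of 11 partners and corepressors of Bcl6 (Bcor, Ncor1, Hdac3 and others) and of 15 genes that Bcl6 represses (Prdm1, Irf4, Cd69 and others) 0 passed. Of 12 germinal center genes 1 passed, Neil1, a DNA glycosylase, which averaged 37.4 ± 10.6 CPM (SD, n = 3) in the Bcl6 tumors. Its Smc3/Bcl6 average was 65.2 ± 26.9 CPM (SD, n = 6), and the log2 fold change was 0.80 (SE 0.40). None of these genes had an adjusted p below 0.05 by edgeR's quasi-likelihood test. Of the B-cell, plasma cell, T-cell, macrophage and dendritic, and stromal and endothelial marker lists, 0 genes passed.

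The remaining calls were in blood cell lists, 2 of 7 neutrophil genes (lower) and 1 of 6 erythroid genes (higher), against 0.868% and 1.28% of all genes. The neutrophil genes Elane and Mpo, which encode granule enzymes, were called lower in Smc3/Bcl6 tumors, and both were high in Bcl6 tumor 3 alone (75.2 and 209 CPM, against at most 17.6 CPM of Mpo in any other tumor). The erythroid gene Klf1, a transcription factor of red cell precursors, was called higher, with a log2 fold change of 3.47 (SE 1.84), and it was high in Smc3/Bcl6 tumors 4 and 6 (30.1 and 15.4 CPM, against at most 1.25 CPM elsewhere).

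The genes whose pattern across the tumors was most like that of each factor were ranked by Pearson r of log2 CPM over 9 tumors among non-members with a mean of at least 10 CPM, as a description with no test. Siglecg, a B-cell inhibitory lectin, followed Ebf1 most closely, with an r of 0.997 (rho 1), and 0.992 without Smc3/Bcl6 tumor 2. Polr3f (0.981) was next for Ebf1. Cntrob (0.995) and Snapc4 (0.986) were nearest to Pax5, Lrrc20 (0.929) and Asun (0.927) to Bcl6, and Ppp3cc (0.969) and Prkd2 (0.959) to Foxo1. For Id3 the nearest row was the smaller of a pair of rows named Cr2 (ENSMUSG00000094924.1, 0.941), whose counts may be split between near-identical annotations, followed by Lace1 (0.935). Gtpbp6 (0.966) and Tti2 (0.925) were nearest to Bach2, and Anxa7 (0.969) and Adprh (0.969) to Mef2b. Slc43a3 (0.957) and C130026I21Rik (0.957) were nearest to Irf8, Vezt (0.923) and Nxpe2 (0.904) to Spib, and 5031414D18Rik (0.927) and Tnfrsf13c (0.914), the receptor for the B-cell survival factor BAFF, to Pou2af1. Without Smc3/Bcl6 tumor 2 these 20 values ran from 0.901 to 0.992.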

How the data were processed

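A library was sequenced for each of 9 lymphomas. Reads were run by the authors through nf-core/rnaseq, with STAR for alignment to mm10 and featureCounts for gene counts, and the deposited counts are raw. Every column matched a sample. Genotype and replicate number came from the sample labels. Gene identifiers were matched to GENCODE M21 (GRCm38; 97.9% found), and promoters came from RefSeq by symbol.

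Counts were analyzed with edgeR 4.0.16 in R 4.3.3 (TMM, filterByExpr by genotype, quasi-likelihood test of genotype in 9 tumors, Benjamini-Hochberg adjustment over 14057 genes). Log2 CPM used a prior count of 2. Correlations were tested by exact permutation over all pairings of tumors, or over pairings within each genotype where genotype means were removed. The members and gene lists were chosen with earlier results of these data known. Genes named are the members, list genes past the thresholds of the study (unadjusted p below 0.1, absolute log2 fold change above 0.56), the 2 most similar non-members of each member, the pairs with Bcl6 and the 3 highest and 3 lowest r. Other pairs were named after their values were seen. Some genes of the lists are not reported here and were left out of every list and score.

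Alternatives included DESeq2 1.42.0, limma 3.58.1 with quality weights, other normalizations and filters, a length and GC offset (lowess span 0.3), the tissue label, leaving out each tumor, and the replicate number as a block. Deviations of tumors with the same number from their genotype means correlated at 0.443, 0.113 and 0.155 for replicates 1 to 3. On this basis the numbers were treated as pairing the tumors in that alternative. The labels give the number but do not say what it marks, and tumors with unlike numbers were not compared in this way. Whether the numbers mark true pairs is thus not known. The scripts were tested on simulated data.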

Additional observations from a re-analysis of the deposited data

Results flagged for a closer look

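The level of each of the 10 factors was examined for a tumor that stands apart within the 6 Smc3/Bcl6 tumors, and 1 did so. Pou2af1 was lowest in Smc3/Bcl6 tumor 3, at 501 CPM, and the gap to the next tumor was 0.653 of the range of the 6 tumors in log2 CPM, above the critical value of Dixon's test. Chance alone gives such a gap in about 1 in 20 groups.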

How the results depend on the processing

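The absence of members at an adjusted p below 0.05 held in every alternative run, as did that of all genes. The counts of genes past the thresholds of the study (180 higher, 122 lower) were 108 higher with library size only, 342 higher with DESeq2, 192 lower with the tissue label as a covariate, 576 and 812 without a filter on low counts, 87 and 50 at 10 CPM in 3 tumors (Mef2b then has no value), 642 and 1002 with limma quality weights, 46 and 31 at an unadjusted p below 0.05, and 45 and 254 with the replicate block over replicates 1 to 3. Members past the thresholds were 1 (Spib) with limma. With the block 0 members passed. In the same 6 tumors without the block, a setting added after seeing the data, the counts were 168 and 88. The cause of the other shifts was not tested. Members with a positive log2 fold change (7) were 0 as differences of means relative to the 3 B-cell genes, a scale also added after seeing the data. Mef2b had 11 to 133 counts per tumor, and a genotype had 3 or 6 tumors.

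The log2 fold changes of these members were small and changed sign as follows. With the replicate block, Pax5 was -0.69, Bach2 0.13, Ebf1 -1.42 and Spib -0.0903, and in the same 6 tumors without it -0.28, 0.0717, -0.71 and -0.30. With limma, Bcl6 was 0.48 and Mef2b -0.22. With the tissue label, Bcl6 was 0.23 and Bach2 0.0562. At 10 CPM, Bach2 was 0.0033 and Foxo1 0.0276. With the length and GC offset, Bach2 was 0.12 and Foxo1 0.0321. Foxo1 was 0.0103 with DESeq2 and with its size factors, and Irf8 was -0.0532 with library size only.

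Pairs of factors at an adjusted p below 0.05 were 0 by rho, 0 within the 6 Smc3/Bcl6 tumors, 17 with library size only and 1 relative to the 3 B-cell genes, a set chosen after seeing the data. The median r was 0.276, 0.182 and 0.265 within the 6 Smc3/Bcl6 tumors, relative to B-cell genes and with the length and GC correction. The r of Bcl6 and Irf8 was -0.0167 by rho, -0.335 within the 6 tumors, -0.0450 with DESeq2 size factors, -0.0475 with the correction and -0.777 after the replicate block. That of Bcl6 and Mef2b was 0.00485 with the correction, and that of Foxo1 and Irf8 was 0.0600 relative to B-cell genes.

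With each tumor left out, genes higher ran from 84 to 339 and lower from 61 to 321, members past the thresholds from 0 to 1, members with a positive log2 fold change from 2 to 10, pairs with a positive r from 27 to 36, pairs passing from 0 to 9 and the median r from 0.301 to 0.506. Log2 fold changes ran from -0.42 to 0.55 (Bcl6), -0.10 to 0.75 (Pax5), -0.33 to 0.14 (Bach2), -0.25 to 0.56 (Mef2b), -0.49 to 1.25 (Ebf1), -0.14 to 0.60 (Pou2af1), -0.26 to 0.87 (Spib), -0.25 to 0.13 (Foxo1) and -0.13 to 0.36 (Irf8). The r of Bcl6 ran from -0.186 to 0.2997 with Irf8 and from -0.409 to 0.132 with Mef2b.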
